A study of Homo sapiens with 18 samples.

Results

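The 42 genes described here act in mitosis or in the passage from G2 into it, and were listed by name among the 61487 genes counted in each library: the mitotic kinases and their cyclins, the spindle checkpoint, the anaphase machinery, the kinetochore, the spindle motors, the cytokinesis proteins and the topoisomerase TOP2A. All 42 were found by symbol, each at 1 Ensembl identifier. They were counted in 18 libraries of NCI-H1975, a human lung adenocarcinoma line, 3 libraries in each of 6 groups. Scramble cells, labelled only with that word, gave mRNA and ribosome footprints to look for translated long noncoding RNAs. Cells labelled CRISPR Control (sgControl) and DAMP knockout (sgDAMP) gave the same pair of assays. DAMP is a peptide encoded by the long noncoding RNA gene DSP-AS1, and the pair was made to compare mRNA and its translation with and without it. Cells for footprints were treated with cycloheximide, which stalls ribosomes on the mRNA, at 100 micrograms per ml. The labels do not say whether the knockout is a single clone or a pool, nor whether replicates were separate cultures, so p-values measure the spread between these libraries, which may be technical.

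Entry into mitosis is driven by the kinase CDK1 bound to a B-type cyclin, after CDC25 phosphatases remove its inhibitory phosphates, and polo and Aurora kinases then build the spindle and correct its attachments. The spindle checkpoint holds CDC20, the activator of the ubiquitin ligase APC/C, until every kinetochore is attached, after which the APC/C destroys securin and cyclin B and the cell divides. Most of these genes are transcribed in G2 by a shared programme in which FOXM1, B-MYB (MYBL2) and the MuvB complex act on a promoter element called CHR, often together with CCAAT boxes bound by NF-Y. In bulk libraries, fewer cells in mitosis and less RNA or fewer footprints per cell cannot be told apart.

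The shared promoter elements are visible in the sequences of 4 genes that stand for the entry kinase (CDK1), its cyclin (CCNB1), the polo kinase (PLK1) and the APC/C activator (CDC20). Each stretch holds the 170 bases before the transcription start in RefSeq's GRCh38.p14 promoter table, 5′ to 3′ on the plus strand. Capitals mark CCAAT, and TTTGAA or TTCGAA, the CHR spellings searched for, on either strand. Other spellings of the CHR were not searched for. CDK1 lies at chr10:60778161-60778330, CCNB1 at chr5:69166980-69167149, PLK1 at chr16:23678719-23678888 and CDC20 at chr1:43358811-43358980.
CDK1: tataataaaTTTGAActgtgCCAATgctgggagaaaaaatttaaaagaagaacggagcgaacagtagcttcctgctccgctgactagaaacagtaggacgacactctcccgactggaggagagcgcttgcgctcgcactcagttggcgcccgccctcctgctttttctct
CCNB1: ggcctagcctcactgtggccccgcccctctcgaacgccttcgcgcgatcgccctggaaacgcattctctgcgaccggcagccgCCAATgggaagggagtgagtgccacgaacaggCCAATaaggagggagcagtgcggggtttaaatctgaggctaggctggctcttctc
PLK1: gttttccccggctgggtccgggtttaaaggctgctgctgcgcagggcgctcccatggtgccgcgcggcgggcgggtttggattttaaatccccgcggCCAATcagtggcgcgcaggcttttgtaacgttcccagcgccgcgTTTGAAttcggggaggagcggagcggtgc
CDC20: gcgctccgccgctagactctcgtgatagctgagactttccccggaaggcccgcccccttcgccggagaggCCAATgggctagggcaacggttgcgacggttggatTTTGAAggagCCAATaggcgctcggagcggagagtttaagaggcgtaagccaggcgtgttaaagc
CDK1 and PLK1 each hold 1 CCAAT and 1 TTTGAA in this stretch, CDC20 holds TTTGAA between a pair of CCAAT, and CCNB1 holds 2 CCAAT and neither CHR spelling. The table has a promoter (250 bases before to 50 after the most upstream start) for 36 of the 42 genes, and it lacks AURKA, BIRC5, BUB3, TTK, TPX2 and UBE2C. CCAAT was found in 28 of the 36 (77.8%) against 36.4% of 15843 protein-coding genes, and a CHR spelling in 26 (72.2%) against 13.6%. The 36 DNA replication genes with a promoter in the table had CCAAT in 55.6% and a CHR spelling in 5.56%. A match of letters is a description and not a binding site.

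Depth differed by assay and by experiment. The mRNA libraries held 10859527 to 12424884 gene counts in Scramble and 17098397 to 17464782 in the other groups. Footprint libraries held 6207783 to 7840852 gene counts in sgControl and sgDAMP. The Scramble footprint libraries held 1035159 to 1302852, of which only 6.37% to 20.2% fell on protein-coding genes. By chi-square, 57 of 12195 genes differed beyond Poisson sampling between the 3 sgControl footprint libraries and 22 of 12454 between the 3 sgDAMP ones (adjusted p under 0.05), with 0 of 41 mitosis genes in either group. Over these 41, chi-square divided by its degrees of freedom averaged 0.986 in sgControl and 1.18 in sgDAMP. The libraries thus agree within sampling noise, and each triplet was summed and counted as 1 sample. DSP-AS1, the targeted gene, had 567 footprints in sgControl and 2 in sgDAMP, with 936 and 979 mRNA counts. Markers of the labelled epithelium were unevenly present. KRT18 was at 1219 coding CPM (counts per 1000000 counts on protein-coding genes) or more in every library. KRT7 was at 386 or more, KRT8 at 174 or more and CDH1 at 27.1 or more. The lung markers NKX2-1 and SFTPB had at most 3 counts in any library and NAPSA at most 24. EPCAM and KRT19 were also low, with at most 15 and 18 counts in any mRNA library. MUC1 had 0 footprints in each sgControl library.

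Every mitosis gene with enough footprints had fewer of them in sgDAMP than in sgControl by TMM scaling, while 5 of them were above 1 when scaled to total counts. Of the 42 genes, 41 had at least 50 footprints over both groups, and NUSAP1, a microtubule-bundling protein, had 0 in all 6 libraries. The TMM-scaled ratio of sgDAMP to sgControl was below 1 for all 41 (36 with total counts), with a lowest value of 0.498, a median of 0.709 and a highest of 0.967, while the median over the 12885 genes with enough footprints was at a log2 ratio of 0.00. For 38 of the 41, the 95% counting interval lay below 1, against 29.2% of the 12885. By the threshold used with 1 sample per group, at least 1.5-fold, 13 were lower, where 11.3% of all genes were lower, and 0 were higher, where 14.1% were. These intervals cover counting error only, with no replicate check behind them and no test. Marker sums of other cells also differed between these footprints. The 6 fibroblast markers summed to 1.29 to 2.58 coding CPM in sgControl and 7.39 to 9.15 in sgDAMP. In a library of either group, 3 to 5 of them were at 0. Most of these fibroblast footprints were COL1A1, with 11, 8 and 11 counts in sgControl and 35, 45 and 40 in sgDAMP. The 6 leukocyte markers summed to 0 to 0.184 and 0.422 to 1.15, and those of sgDAMP were all CD14 (2, 4 and 6 counts). The 4 endothelial markers summed to 0 to 0.161 and 0. The 10 epithelial markers summed to 7452 to 7653 and 8982 to 9030. These sums in coding CPM carry no TMM scaling. By TMM-scaled ratio, the 6 epithelial markers with enough footprints had a median log2 of 0.05, from -0.04 to 1.44, with 3 above 0. The part of the markers in the footprint differences was not tested.

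**Figure D1:**
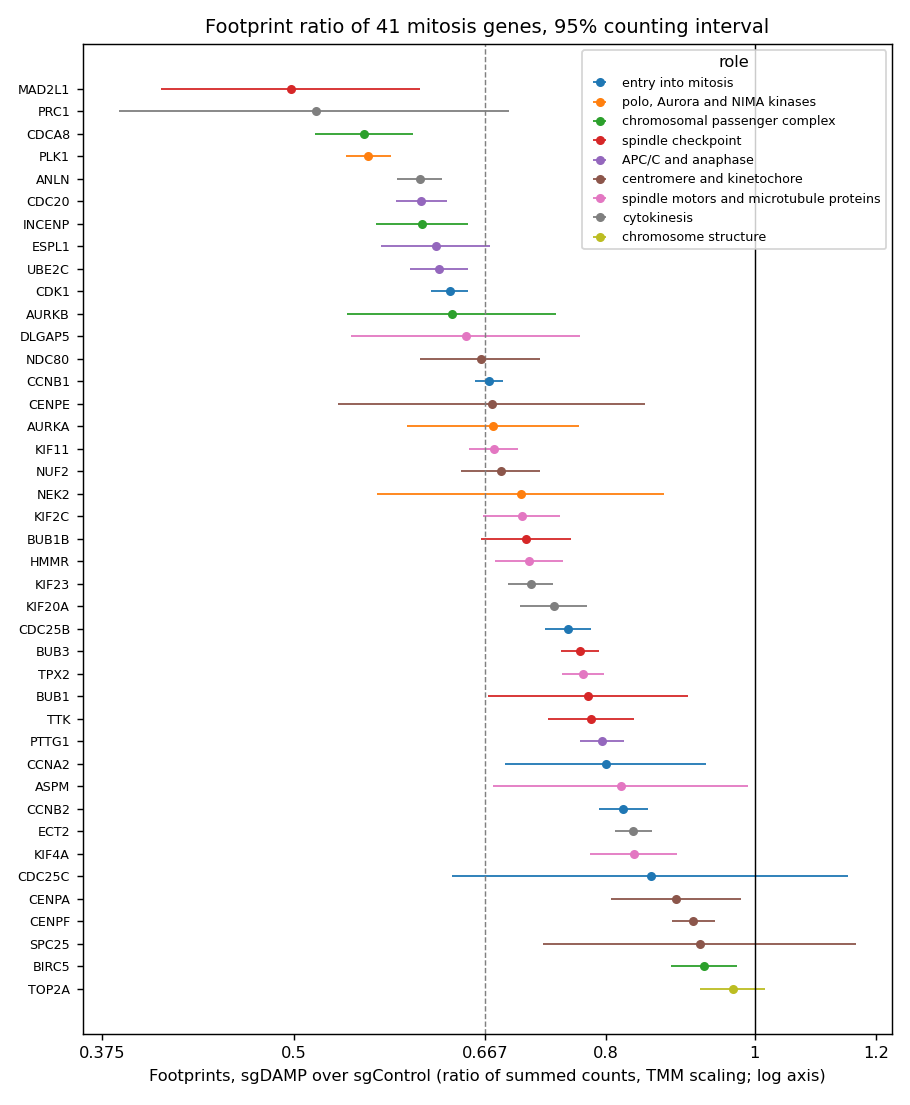
Ratio of summed footprints in sgDAMP to sgControl for 41 mitosis genes (log axis, TMM scaling), with points coloured by role and bars showing the 95% counting interval. The solid line marks 1 and the dashed line a 1.5-fold lower value. All points lie left of 1, from MAD2L1 at 0.498 to TOP2A at 0.967; with total-count scaling 36 of the 41 would.

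Among the genes that start mitosis, the kinase CDK1 had 3803, 4446 and 4361 footprints in the sgControl libraries and 2523, 2852 and 2831 in the sgDAMP libraries. The summed counts were 12610 and 8206, and the ratio after scaling for depth was 0.632 (95% interval 0.615 to 0.650). Its partner cyclin B1 (CCNB1), with the most footprints of the 42 genes, had 6165, 7114 and 6979 against 4361, 4918 and 4701. Its ratio of 0.671 fell just outside the 1.5-fold threshold. Cyclin B2 (CCNB2) at 0.821, cyclin A2 (CCNA2) at 0.799 and the CDK1-activating phosphatase CDC25B at 0.755 were less reduced than CDK1, and their intervals did not reach that of CDK1. The related phosphatase CDC25C rested on 100 and 88 footprints, and its interval of 0.635 to 1.15 included 1.

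PLK1, the polo kinase of entry, spindle assembly and exit, had 2781, 3280 and 3292 footprints in sgControl and 1694, 1807 and 1883 in sgDAMP. Its ratio of 0.559 (0.541 to 0.579) had an interval wholly below that of CDK1. AURKA, the centrosomal Aurora kinase, stood at 0.675 and the centrosome kinase NEK2 at 0.704.

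The chromosomal passenger complex carries the Aurora B kinase to centromeres, and the footprint ratios of its subunits differed. AURKB, the kinase, had 134, 149 and 126 footprints against 79, 96 and 92, a ratio of 0.634 (0.542 to 0.742). The scaffold INCENP stood at 0.606 and the targeting subunit borealin (CDCA8) at 0.556. The other targeting subunit, survivin (BIRC5), had 1030, 1059 and 1120 against 927, 1050 and 1082, a ratio of 0.926. Its interval of 0.881 to 0.974 lay above those of the other 3 subunits.

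The spindle checkpoint protein MAD2L1, which binds and holds CDC20, had 87, 128 and 99 footprints in sgControl and 50, 55 and 56 in sgDAMP. Its ratio of 0.498 (0.409 to 0.604) was the lowest of the 41. The checkpoint kinase BUB1 at 0.779, the checkpoint proteins BUB1B at 0.709 and BUB3 at 0.769, and the kinase TTK at 0.782 were all above its upper bound.

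Of the anaphase genes, CDC20 had 2070, 2451 and 2427 footprints against 1363, 1442 and 1527, a ratio of 0.606 (0.583 to 0.629). UBE2C, the ubiquitin-conjugating enzyme of the APC/C, at 0.622 and separase (ESPL1), the protease that cuts cohesin, at 0.619 were close to it. Securin (PTTG1), the inhibitor of separase, was less reduced at 0.795 (0.769 to 0.821). The intervals of PTTG1 and ESPL1 did not overlap.

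At the kinetochore, the microtubule-binding subunits NDC80 (0.662) and NUF2 (0.683) of the NDC80 complex and the motor CENPE (0.674) had the lowest ratios. The centromeric histone CENPA stood at 0.889 and the large coiled-coil protein CENPF at 0.912. SPC25, another subunit of the NDC80 complex, had 152 and 144 footprints and a ratio of 0.921, with an interval of 0.728 to 1.16.

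Among spindle proteins, the ratio was 0.648 for DLGAP5, a kinetochore-fibre protein, 0.675 for KIF11, the bipolar motor, 0.705 for the depolymerase KIF2C, 0.712 for HMMR, 0.772 for TPX2, the activator of AURKA, 0.818 for the spindle-pole protein ASPM and 0.834 for the chromokinesin KIF4A. Of the cytokinesis genes, PRC1, the bundler of the central spindle, had the lowest ratio (0.517) on only 139 and 74 footprints. ANLN, the anillin scaffold of the contractile ring, had 2693, 3093 and 3175 against 1743, 1946 and 1885, a ratio of 0.604. The central-spindle motors KIF23 (0.714) and KIF20A (0.739) and the RhoA activator ECT2 (0.833) were higher than ANLN. TOP2A, which decatenates chromosomes, had 993, 1141 and 1185 against 994, 1141 and 1169, and its interval of 0.922 to 1.02 included 1.

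The size of these differences depended on the scaling. Scaling to total counts moved the median of all genes up by 0.217 on the log2 scale, and then 36 of the 41 genes were below 1 and 4 (MAD2L1, PRC1, CDCA8 and PLK1) were at least 1.5-fold lower. BIRC5, CENPA, CENPF, SPC25 and TOP2A were then above 1, at log2 ratios of 0.11, 0.05, 0.08, 0.10 and 0.17, and upper-quartile scaling put TOP2A alone above 1, at 0.02. The shares over all genes given above hold for TMM scaling only.

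The mRNA of the same genes did not show this direction. Fitted over 14032 genes with edgeR's quasi-likelihood test, the 41 tested genes (PRC1 was too low) had 0 calls at an adjusted p under 0.05, where the share over all genes was 0%, and the smallest adjusted p of a mitosis gene was 0.862 (Benjamini-Hochberg). DESeq2 called 21 genes, none of them among these. At an unadjusted p under 0.05, edgeR's test gave 5 higher and 1 lower, and 5.28% of all genes reached it in either direction. The mean in sgDAMP was above that in sgControl for 32 of the 41, with a median log2 difference of 0.28 against 0.03 over all genes, and for 30 to 36 with the other scalings. Without sgDAMP replicate 2, that median was 0.08, with 26 above 0.

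Levels are given as CPM (counts per 1000000 gene counts of a library, scaled by TMM). CDK1 stood at 8.26, 22.3 and 44.9 in sgControl and at 12.3, 64.7 and 40.03 in sgDAMP. The groups overlapped, and the range within each group was wider than the difference of their means (log2 0.63, SE 0.57). MAD2L1 followed the same order of libraries within each group, with 4.32, 11.04 and 21.6 against 8.57, 29.4 and 14.7. CCNB1 was nearly level, at 90.6, 89.0 and 111 against 76.9, 125 and 98.7 (log2 0.05, SE 0.27).

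PLK1 was at 180, 156 and 103 in sgControl, the reverse of the order of CDK1, and at 123, 77.0 and 140 in sgDAMP, where it was lowest in the library in which CDK1 was highest (log2 -0.37, SE 0.31). CDC20 was lower in every sgDAMP library, at 219, 176 and 145 against 122, 98.9 and 136 (log2 -0.60, SE 0.27, edgeR adjusted p 0.862). Next to it among the lowest were ESPL1 at -0.33, CDC25B at -0.28, NUSAP1 at -0.20 and CDCA8 at -0.10. AURKB, at 57.6, 51.2 and 34.4 against 42.2, 41.6 and 52.9, gave -0.07.

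The highest mRNA differences belonged to genes of low level. ASPM, at 0.381, 1.93 and 0.955 against 2.60, 3.20 and 2.74, gave a log2 difference of 1.38 (SE 0.51). NUF2 followed at 1.32, DLGAP5 at 1.28, HMMR at 1.07, CCNA2 at 1.01 and CENPE at 0.95. TOP2A had 9.72, 18.9 and 18.7 in sgControl and 26.9, 25.2 and 25.6 in sgDAMP, a log2 difference of 0.71 (SE 0.31), so its groups did not overlap.

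Groups did not overlap for 6 genes with higher values in sgDAMP (CCNA2, KIF11, DLGAP5, ASPM, ECT2 and TOP2A) and for 1 with lower values (CDC20), 7 of 41 against 11.5% of all genes in either direction. Of the 41, 24 were highest in sgDAMP replicate 2 and 21 were lowest in sgControl replicate 1, so single libraries set many of the extremes. The 10 epithelial markers together lay between 19931 and 25789 coding CPM in the sgControl mRNA libraries and between 14581 and 20591 in those of sgDAMP. Most of that sum was KRT8, KRT7 and KRT18. CDH1 ran the other way, at 27.1, 27.6 and 30.7 in sgControl against 59.9, 35.4 and 41.8 in sgDAMP. The part of the markers in these differences was not tested.

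**Figure D2:**
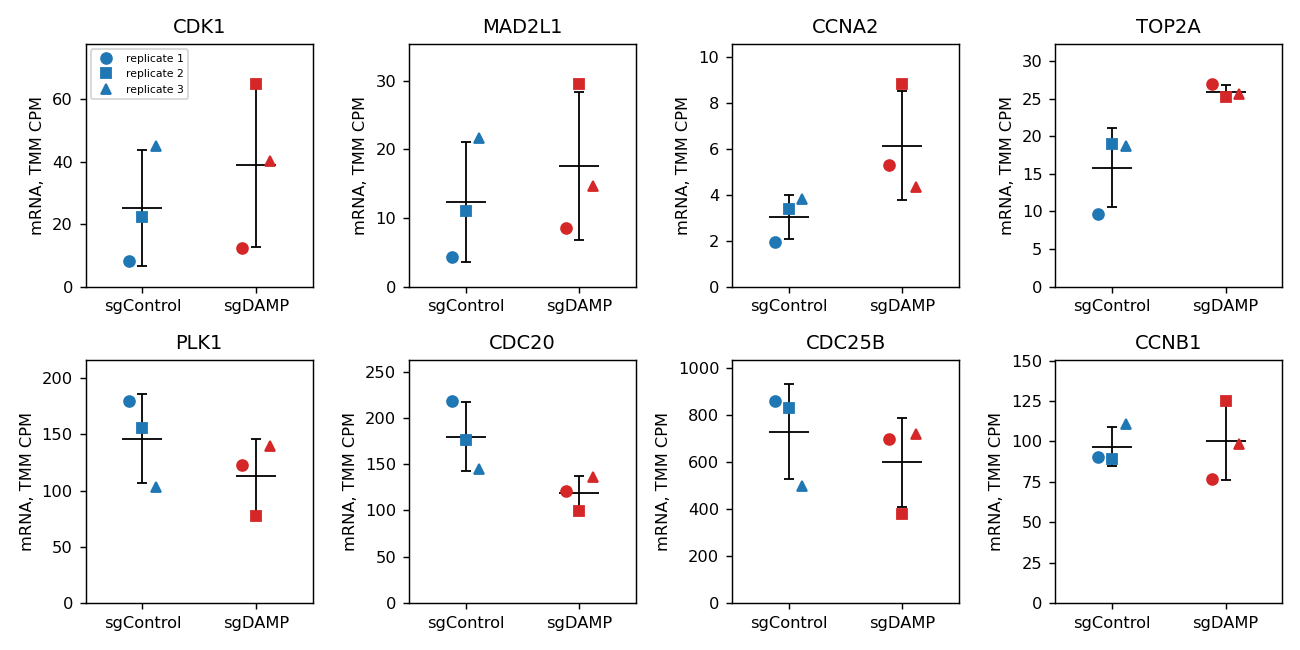
mRNA level (TMM-scaled CPM, linear axes from 0) of 8 mitosis genes in the 3 sgControl and 3 sgDAMP libraries, with symbols for replicates and lines and bars for mean and SD. CDK1 and MAD2L1 are lowest in replicate 1 of both groups, PLK1 is lowest in sgDAMP replicate 2, where CDK1 and MAD2L1 are highest, and only CCNA2, TOP2A and CDC20 have groups that do not overlap.

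Set beside each other, the assays often differed in direction. Of 40 genes measured in both, 32 had a higher mRNA mean and fewer footprints in sgDAMP and 8 had less of both. The log2 differences of the assays had a Pearson correlation of 0.19 and a Spearman correlation of 0.25 over these 40 genes, which share libraries within each assay. CDC20 and PLK1 were low in both assays, at mRNA differences of -0.60 and -0.37 and footprint log2 ratios of -0.72 and -0.84. KIF11, NUF2 and DLGAP5 had mRNA differences of 0.81, 1.32 and 1.28 and footprint log2 ratios of -0.57, -0.55 and -0.63.

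**Figure D3:**
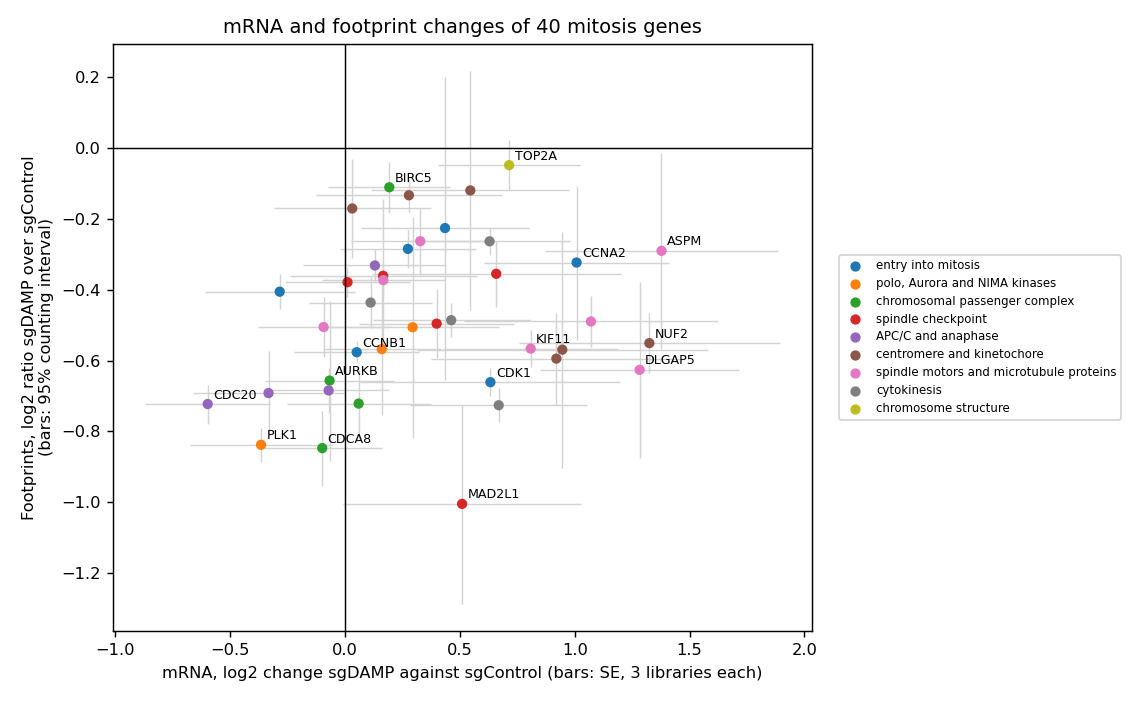
Log2 change of mRNA (x axis, bars SE over 3 libraries each) and log2 ratio of footprints (y axis, bars 95% counting interval), sgDAMP against sgControl, for 40 mitosis genes coloured by role. With TMM scaling all 40 points lie below 0 on the y axis (5 would not with total counts), and 32 lie right of 0 on the x axis.

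Footprints relative to mRNA were tested by the interaction of assay and condition, with the spread taken from the mRNA libraries. All 40 genes tested had a negative estimate, with a median of -0.68 against -0.01 over the 10388 genes tested, and all 40 stayed negative with total-count and upper-quartile scaling. None of the 40 passed: edgeR's quasi-likelihood test called 0 at an adjusted p under 0.05, DESeq2 also called 0, and every adjusted p was 0.9999 or more. Over all genes, 0.0385% were called higher and 0.414% lower. At an unadjusted p under 0.05 there were 2 of the 40 (DLGAP5 and KIF11), against 2.97% of all genes.

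The lowest estimates were those of DLGAP5 (-1.90, SE 0.77), NUF2 (-1.85), ASPM (-1.66), HMMR (-1.54), CENPE (-1.52) and MAD2L1 (-1.49), most of them with little mRNA. CDK1 gave -1.27 with an SE of 1.12, TOP2A -0.76, CCNB1 -0.61, AURKB -0.58 and PLK1 -0.47. Nearest to 0 were CDC20 (-0.12), CDC25B (-0.13), CENPA (-0.19), BIRC5 (-0.29), ESPL1 (-0.37) and BUB3 (-0.38). With the footprint libraries taken as 3 replicates of each group, DLGAP5 (edgeR adjusted p 0.0210) and KIF11 (0.0217) were called lower. Those libraries agree within sampling noise, so that setting understates their error.

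Other lists of cell cycle genes are read against the same shares of all genes, 11.3% at least 1.5-fold lower and 14.1% higher. Of 41 DNA replication genes, 20 were at least 1.5-fold lower and 2 higher, with a median log2 ratio of -0.57, close to the -0.50 of the mitosis genes. The largest differences among these were RRM1 at 0.0688 (104963 and 7435 footprints), POLA2 at 0.345 and ORC1 at 0.442. The interaction estimate of RRM1 was -4.21 (SE 0.67). Of 34 other kinetochore, spindle and centrosome genes, 11 were lower and 1 higher (median -0.40), among them the kinesin KIF18B at a ratio of 0.474 and the kinetochore protein SKA3 at 0.475, both lower, and ZW10 at 3.20. Of 17 cohesin and condensin genes 0 were lower or higher (median -0.29). Of 16 APC/C subunits and regulators, 2 were lower and 1 higher (median -0.04), near the share of all genes, with FBXO5, an APC/C inhibitor, at 0.413. Of 26 other G2/M regulators 5 were lower and 3 higher (median -0.07). The largest differences among these were TFDP1 at 0.103 (11349 and 1200 footprints), FOXM1 at 0.321 and TFDP2 at 2.54 (31 and 81 footprints). The interaction estimate of TFDP1 was -3.51 (SE 0.56).

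Among regulators of the G2 programme, FOXM1 had 106 footprints in sgControl and 35 in sgDAMP, a ratio of 0.321 (0.212 to 0.474), and MYBL2 had 1290 and 914, a ratio of 0.689. CDKN1A, the p21 inhibitor of cyclin-dependent kinases, had 2373 and 5595 footprints, a ratio of 2.29. The mRNA log2 differences of these 3 genes were -0.33, -0.35 and -0.55, and edgeR's test called none of them (the lowest adjusted p was 0.862). Their interaction estimates were -1.31, -0.18 and 1.74, and none of the 3 passed. MYBL2 and CDKN1A were picked by name, while FOXM1 is also among the called G2/M regulators with the largest footprint differences.

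In Scramble cells, where 3 mRNA and 3 footprint libraries could be compared with a test, mitosis genes had more footprints per mRNA than most coding genes. The zero point between assays is arbitrary and was set at the median coding gene. Coding lengths were not at hand, so comparing genes by this ratio carries no correction for the coding part of each transcript. Of the 42 genes, 40 were tested (NUSAP1 and PRC1 were too low). Of these, 37 were higher at an adjusted p under 0.05 by edgeR's quasi-likelihood test, where 22.3% of all genes were higher, and 0 were lower, where 16.9% were. DESeq2 also called 37 higher and 0 lower. Without Scramble mRNA replicate 1, or without Scramble mRNA replicate 2, fewer of the genes were tested and 24 were higher. The median log2 difference of the 40 was 2.45, against -0.24 over the 14432 genes tested. DNA replication genes shared the direction in part, with 27 of 40 higher and a median of 1.81.

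Depth limits this comparison, since the summed Scramble footprints of a mitosis gene had a median of 21.5 and a maximum of 157, and 7 of the 40 genes had fewer than 10. When at least 10 counts were asked for in every library, 7 mitosis genes remained, 5 were higher and 1 was lower, and their median was 1.34. The zero point was then the median coding gene passing that filter. The shares over all genes given above belong to the main filter and not to this one. BUB3, on the same counts, went from 1.10 to -0.29, so this median and the main one are not on the same scale. Markers of other cells moved with the assay. Fibroblast markers summed to 37.7 to 84.4 coding CPM in the footprints and 6.15 to 6.84 in mRNA, with 3 of the 6 at 0 in each footprint library, and leukocyte markers to 62.8 to 108 and 1.14 to 2.11, with 4 or 5 of the 6 at 0. The 4 endothelial markers summed to 4.19 to 36.2 and 0.282 to 0.879, with 2 or 3 at 0 in a footprint library. Most of the fibroblast and leukocyte footprints were LUM (7, 6 and 4 counts) and CD14 (13, 16 and 9). Their part in the result was not tested.

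AURKB had the highest value. It had 57, 74 and 60 mRNA counts and 17, 12 and 13 footprints, a log2 difference of 4.46 (SE 0.39, edgeR adjusted p 6.38e-10). PTTG1, with 109, 155 and 115 mRNA counts and 32, 32 and 16 footprints, gave 4.39 (SE 0.28). SPC25 (4.15), CDK1 (4.06, from 98, 123 and 90 mRNA counts and 24, 22 and 7 footprints), KIF20A (3.85) and NDC80 (3.71) followed.

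TOP2A rested on the most footprints of the genes called (55, 41 and 23, beside 720, 758 and 643 mRNA counts) and gave 2.47 (SE 0.20). CCNB1 gave 2.79, PLK1 2.19 and CDC20 2.19. At the low end, CDC25B, with 5578, 5919 and 5369 mRNA counts and 73, 53 and 31 footprints, gave -0.12 (SE 0.22), and KIF4A gave 0.47 (SE 0.78); neither passed the test. BUB3 (1.10), TPX2 (1.34), INCENP (1.45) and ECT2 (1.48) were the lowest of those that did. CDCA8 had 138 mRNA counts and 0 footprints in 3 libraries. A count of 0 allows up to 3 footprints, which would put it at a log2 value of up to 1.10, so no direction can be given at this depth.

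In sgControl and sgDAMP the same ratio was again high for most of the genes. It is described without a test, since each has 1 footprint sample, and without a length correction. The median of the 40 was 3.16 in sgControl, with 36 above 0, and 2.48 in sgDAMP, with 35 above 0. All 40 were lower in sgDAMP than in sgControl, with a median difference of -0.68, which is the comparison already given by the interaction. CENPF (7.44), KIF11 (7.36) and NUF2 (7.25) were highest in sgControl, and AURKB (-1.01), CDC25B (-0.78), AURKA (-0.41) and CDC25C (-0.36) were below 0.

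The order of the genes was not that of Scramble. AURKB, first in Scramble, was last in sgControl. Over the 40 genes, the Scramble and sgControl ratios had a Pearson correlation of 0.08 and a Spearman correlation of 0.00, and over 10059 genes these were 0.05 and 0.04. The sgControl and sgDAMP ratios had correlations of 0.98 and 0.97 over the 40. The points of each pair share genes and, within an experiment, a sequencing depth. Across 11450 coding genes, the Spearman correlation of mRNA and footprint levels was 0.70 in Scramble, 0.39 in sgControl and 0.44 in sgDAMP.

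**Figure D4:**
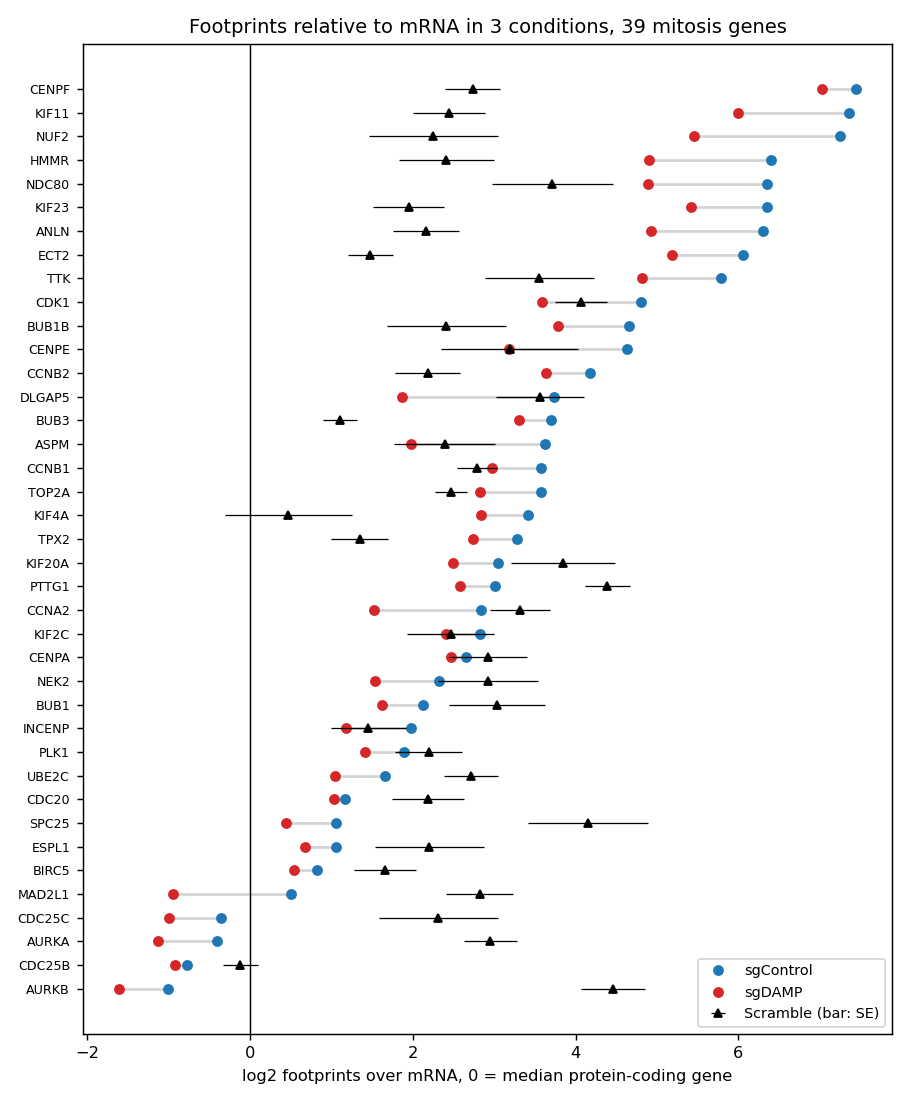
Log2 ratio of footprints to mRNA for 39 mitosis genes (CDCA8 is left out, with 0 Scramble footprints), in sgControl (blue), sgDAMP (red) and Scramble (black triangles, bars SE), with 0 at the median coding gene. Every red point lies left of its blue point, and the triangles do not follow the order of the blue points, with AURKB at 4.46 in Scramble and -1.01 in sgControl.

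The levels behind these ratios differed between the experiments in both assays. In coding CPM, CDC20 mRNA was at 13.6 ± 1.33 (SD, n = 3) in Scramble and 178 ± 25.3 (SD, n = 3) in sgControl, and PLK1 at 14.8 ± 0.272 and 144 ± 30.2. CENPF ran the other way, at 21.1 ± 2.51 and 2.53 ± 1.08, as did KIF11, at 11.9 ± 1.84 and 2.45 ± 0.882, and ASPM, at 7.78 ± 1.34 and 1.10 ± 0.774. The mean was lower in sgControl for 22 of the 42 genes and higher for 20. AURKB footprints were at 95.8 ± 53.1 in Scramble and at a mean of 23.1 in sgControl (libraries counted as 1 sample), while its mRNA was at 5.97 ± 0.579 and 47.1 ± 8.999. The Scramble libraries also differed from the others in depth and in the share of reads on no gene (54.0% to 54.3% against 22.2% to 24.2% in mRNA), so condition and experiment cannot be told apart here.

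As a share of protein-coding counts, the 42 genes took 0.121% ± 0.00134 (SD, n = 3) of Scramble mRNA, 0.189% ± 0.0110 of sgControl mRNA and 0.195% ± 0.0140 of sgDAMP mRNA. In footprints they took 0.261% ± 0.0340 (SD, n = 3) in Scramble, and means of 0.985% in sgControl and 0.852% in sgDAMP, each from libraries counted as 1 sample. The share was higher in footprints than in mRNA in all 3 conditions, and lower in sgDAMP footprints than in sgControl footprints. CDC25B held 43.7%, 37.8% and 33.6% of the mRNA counts of the list in Scramble, sgControl and sgDAMP. Without it the mRNA shares of sgControl and sgDAMP were 0.117% and 0.129%, and the footprint shares 0.944% and 0.815%.

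**Figure D5:**
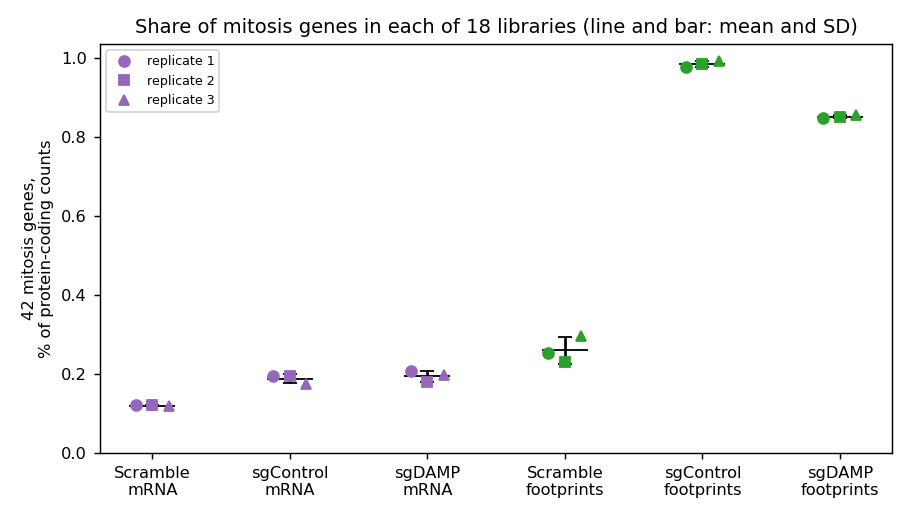
Share of protein-coding counts taken by the 42 mitosis genes in each of the 18 libraries (purple mRNA, green footprints), with lines and bars for mean and SD of 3 libraries, which for sgControl and sgDAMP footprints are counted as 1 sample. The sgControl footprints are highest at a mean of 0.985% and the sgDAMP footprints next at 0.852%, while the mRNA libraries lie between 0.119% and 0.207%.

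Some of the genes may be counted with a neighbour or a copy. The spans of 7 overlap another coding gene (CCNA2 with EXOSC9, CDC25C with FAM53C, PLK1 with ERN2, BUB1B with BUB1B-PAK6, SPC25 with NOSTRIN, KIF20A with CDC23 and ANLN with MATCAP2), and whether counting used the strand is not given in the sources used here. KIF4A and PTTG1 have near-identical copies elsewhere in the genome. The values of these 9 genes are therefore uncertain. Outside these 9, NUSAP1 had 35, 28 and 27 summed mRNA counts in Scramble, sgControl and sgDAMP, and 0 footprints in each. PRC1 had 8, 8 and 5 summed mRNA counts in the same groups, beside 9, 139 and 74 footprints. Why the counts of NUSAP1 and PRC1 were low was not tested.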

How the data were processed

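The data are 9 mRNA-seq libraries (oligo(dT) selection) and 9 ribosome profiling libraries of the NCI-H1975 line. The authors deposited raw counts per gene, whole numbers in the form HTSeq writes, and per the submitters' processing notes worked on GRCh38 with HTSeq 0.11.2, HISAT2 2.1.0, Trimmomatic 0.30, SAMtools 1.10 and edgeR. Neither the annotation release nor the strand setting is given in the sources used here. Reads assigned to no gene were left out of library sizes (22.2% to 24.2% in sgControl and sgDAMP mRNA, 65.8% to 70.0% in their footprints, 54.0% to 54.3% in Scramble mRNA and 95.7% to 95.8% in Scramble footprints).

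The genes and lists were chosen with earlier results of these data known. Symbols, biotypes and positions came from RefSeq GRCh38.p14 and a gene name table, which gave a symbol to 61369 of 61487 identifiers. Counts were fitted with edgeR 4.0.16 in R 4.3.3 (filterByExpr with a minimum count of 10, TMM, quasi-likelihood test, Benjamini-Hochberg adjustment over all genes tested, threshold 0.05), 3 against 3 libraries for mRNA and for Scramble. sgControl and sgDAMP footprints entered as sums, with a ratio of TMM-scaled sums, a Clopper-Pearson 95% interval and a minimum of 50 summed counts. In the interaction each lone footprint sum is assumed to vary like the mRNA libraries. Scramble assays were scaled separately and centred on the median tested coding gene. Scripts were tested on simulated data. Alternatives covered scaling, filters, DESeq2 1.42.0, a replicate block and leaving out each library.

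Named genes were the 6 highest and 6 lowest in each comparison plus CDK1, CCNB1, PLK1, AURKB, CDC20 and TOP2A, and from each other list up to 3 called genes. MYBL2 and CDKN1A were added by name, outside that rule. Coding lengths were not at hand, so levels were not compared between genes, and a planned level per kilobase was left out. The ratios of footprints to mRNA, which are compared between genes, have no length correction. Intervals cover counting error only, since the reads carry no molecular identifiers.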

Additional observations from a re-analysis of the deposited data

How the results depend on the processing

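For mRNA, 0 mitosis genes were called under any setting. Over all genes edgeR called 14 with no filter and DESeq2 21, and leaving out each library gave 0 to 6. Single mitosis genes kept their side of the threshold in all 491 mRNA values computed, with 32 changes of sign among uncalled values.

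For footprints, total-count scaling left 4 mitosis genes at least 1.5-fold lower, with a median of -0.28, and upper-quartile scaling gave a median of -0.43. The share of all genes lower under total-count scaling is not given here. At least 2-fold left 1 mitosis gene (MAD2L1) and 1267 of all genes against 3277, and a minimum of 10 counts called 6576 genes. With the libraries as replicates, edgeR called 6959 genes and 37 mitosis genes, and with a replicate block 6966 and 37. Leaving out each library gave medians from -0.53 to -0.48.

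For the interaction, taking footprint libraries as replicates called 324 genes and 2 mitosis genes, and with a replicate block 182 and 2. Without each library in turn, 27 to 60 genes were called; 27 came without sgDAMP mRNA replicate 1 and 31 without sgDAMP mRNA replicate 3. For Scramble, TMM over both assays with no centring gave 1 mitosis gene lower (CDC25B) and a median of 2.01, and no filter a median of 2.85. Asking for 10 counts in every library left 1147 genes called, 5 mitosis genes higher and 1 lower, a median of 1.34, and BUB3 at -0.29, not called. The share of all genes called under that filter is not given here. Without each library, 24 to 35 mitosis genes were higher, with 24 without Scramble mRNA replicate 1 and 24 without Scramble mRNA replicate 2, where fewer genes were tested, and medians ran from 2.41 to 2.64. A replicate block gave 32 mitosis genes higher. The sgDAMP ratio of footprints to mRNA had a median of 2.79 with a minimum of 10 footprints.

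Replicate numbers did not pair the samples: same-numbered deviations correlated from -0.61 to 0.57, and the labels name no shared culture. Where a setting moved a result, the cause was not tested beyond the fewer genes or libraries it uses. In ratios of footprints to mRNA, a filter also changes the genes that set the zero point. Depth limits Scramble footprints most.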
